A study of Mus musculus with 3 samples.

Results

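The genes described here are 10 genes of the major histocompatibility complex (MHC) class I presentation pathway: H2-K1, H2-D1, B2m, Psmb8, Psmb9, Psmb10, Tap1, Tap2, Tapbp and Nlrc5. They were chosen by name from the 32285 genes counted in the files, and their levels were described in 3 classes of fat stromal cells and in cells with and without transcripts of the chemokine gene Cxcl9. Class I molecules carry short peptides of a cell's own proteins to its surface, where CD8 T cells read them. The immunoproteasome cuts proteins into peptides, the TAP transporter moves these into the endoplasmic reticulum, tapasin helps load them, and a heavy chain paired with beta-2 microglobulin presents them. The transactivator NLRC5 acts on many of these genes, and interferons raise the pathway in most cell types.

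The cells came from the CD31- CD45- stromal vascular fraction (SVF) of the subcutaneous inguinal fat of wild-type C57BL/6J mice, all male and 8 weeks old. CD31 marks endothelial cells and CD45 marks leukocytes, and the sort depleted both without removing every cell with their markers. Each of 3 mice gave 1 droplet library, and there was 1 condition, with no treatment, no transgene and no second genotype. Comparisons were therefore made between classes of cells within the same 3 animals.

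The libraries held 13698, 6872 and 16220 barcodes with 95899433, 79801002 and 100846072 unique molecular identifiers (UMIs, counts of captured transcripts) in mice 1, 2 and 3. Between 52 and 81 barcodes occurred in both of any 2 libraries. Cells with more than 500 detected genes and under 5% mitochondrial UMIs were kept, 34577 of 36790, and their median UMI count was between 6667 and 12192.5 per mouse. Progenitors, which the study calls adipocyte stem cells (ASCs), were gated as cells with at least 3 UMIs of Dpp4 and Pi16 together and at most 1 of Icam1 and Fabp4 together. Preadipocytes (PreAs) had at least 4 UMIs of Icam1 and Fabp4 and at most 1 of Dpp4, and regulatory cells (Aregs) had at least 1 UMI each of Clec11a and Fmo2 and at most 1 each of Fabp4 and Dpp4. The PreA gate uses neither Cd44 nor Noct. It therefore does not separate what the study calls pro-preadipocytes (CD44-high) from the CD44-low cells to which the study limits the name PreAs. The gates held 19931 progenitors, 5735 PreAs and 1322 regulatory cells, and a cell inside 2 gates was left out of the comparisons.

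Markers that the gates did not use went with the class they are named for, but not all were particular to it. Of 6 further progenitor markers, 6 were lower in PreAs than in progenitors, 7 of 7 further PreA markers were higher, and 8 of 8 further regulatory markers were higher in regulatory cells than in progenitors. However, 5 of the 8 regulatory markers were also higher in PreAs than in progenitors. Of the 7 PreA markers, 6 were also higher in regulatory cells than in progenitors. Among all genes tested, 27.2% were called higher and 29.2% lower in PreAs than in progenitors. In regulatory cells against progenitors, 19.0% were called higher and 24.0% lower. The CD45 gene Ptprc had at most 7 UMIs in any of the 9 sums of class and mouse. Cells with a UMI of any of the 16 leukocyte markers were 3.1%, 7.89% and 2.61% of progenitors in mice 1, 2 and 3. They were 4.26%, 7.53% and 2.81% of PreAs and 6.30%, 12.8% and 6.44% of regulatory cells. Of 3 leukocyte markers tested, 1 was called higher in regulatory cells than in PreAs and 1 higher than in progenitors. Between PreAs and progenitors 0 were called. The 8 endothelial markers summed to 36.5, 68.4 and 5.01 per 1000000 UMIs (CPM) in the PreAs of mice 1, 2 and 3, against 8.87, 2.92 and 3.01 CPM in progenitors and 6.32, 5.14 and 5.68 CPM in regulatory cells. The 7 mural cell markers summed to between 68.0 and 95.3 CPM in PreAs, between 23.3 and 33.4 CPM in progenitors and between 54.1 and 106 CPM in regulatory cells. The 5 epithelial markers stood at 108 CPM in the regulatory cells of mouse 3 and at 0 in those of mice 1 and 2.

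Of the 10 genes, 7 lie on chromosome 17 between 33915899 and 35267499 (GRCm38), inside the mouse MHC. Psmb10 and Nlrc5 lie on chromosome 8 and B2m lies on chromosome 2. Tap1 (34187553 to 34197225) and Psmb9 (34181987 to 34187764) are divergent neighbours whose RefSeq start sites are 226 bases apart, and 275 bases of their promoter windows are the same DNA. The Zbtb22 gene shares exon bases with Tapbp on the same strand, and reads there cannot be given to either gene. H2-K1, H2-D1 and the H2-Q genes are close copies of each other, so that counts between them carry an uncertainty that the files do not show.

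Promoter windows (250 bases before to 50 bases after a start site) of 8 of the 10 genes were found in the RefSeq table of GRCm38.p6. Tap2 and Nlrc5 were not matched. The windows were searched on both strands for the core of the interferon-stimulated response element (GAAANNGAA), the gamma-activated site (TTCNNNGAA), an NF-kB site (GGGNNTTCC), the Y box (CCAAT) and the core of the X2 box, which CREB also binds (TGACG). The X and Y boxes make up the module on which NLRC5 and its partners assemble. The windows of the 2 heavy chains, of B2m, of Tap1 and of Tapbp are given below in lower case, with each match in capitals. They were picked because the first 4 of these genes were higher in PreAs than in progenitors and Tapbp was lower. Psmb8, Psmb9 and Psmb10, whose windows are not printed, were also higher in PreAs.
H2-K1, chr17:34000284-34000583, minus strand: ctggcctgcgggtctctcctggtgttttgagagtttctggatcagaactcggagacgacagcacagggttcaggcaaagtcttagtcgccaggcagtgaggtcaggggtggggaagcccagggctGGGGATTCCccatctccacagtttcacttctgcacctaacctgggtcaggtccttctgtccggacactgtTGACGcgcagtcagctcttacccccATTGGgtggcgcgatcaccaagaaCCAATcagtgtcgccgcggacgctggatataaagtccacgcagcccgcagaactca
H2-D1, chr17:35262844-35263143, plus strand: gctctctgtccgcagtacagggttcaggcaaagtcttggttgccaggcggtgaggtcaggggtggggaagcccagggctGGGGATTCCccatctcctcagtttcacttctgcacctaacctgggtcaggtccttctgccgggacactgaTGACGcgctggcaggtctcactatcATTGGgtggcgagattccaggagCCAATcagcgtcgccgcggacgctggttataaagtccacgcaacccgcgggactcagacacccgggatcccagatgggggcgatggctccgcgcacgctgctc
B2m, chr2:122147437-122147736, plus strand: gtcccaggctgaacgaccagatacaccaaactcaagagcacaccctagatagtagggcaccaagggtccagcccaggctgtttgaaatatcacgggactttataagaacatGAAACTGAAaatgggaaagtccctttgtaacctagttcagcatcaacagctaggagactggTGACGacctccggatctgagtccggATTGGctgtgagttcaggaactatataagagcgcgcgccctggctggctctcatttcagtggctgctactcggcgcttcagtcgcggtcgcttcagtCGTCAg
Tap1, chr17:34187306-34187605, plus strand: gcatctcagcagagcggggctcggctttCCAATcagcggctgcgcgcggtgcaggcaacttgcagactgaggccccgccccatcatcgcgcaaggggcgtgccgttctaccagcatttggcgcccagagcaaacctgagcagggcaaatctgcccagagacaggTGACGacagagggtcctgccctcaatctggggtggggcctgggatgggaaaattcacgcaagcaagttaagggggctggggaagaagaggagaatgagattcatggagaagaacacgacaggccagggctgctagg
Tapbp, chr17:33919228-33919527, plus strand: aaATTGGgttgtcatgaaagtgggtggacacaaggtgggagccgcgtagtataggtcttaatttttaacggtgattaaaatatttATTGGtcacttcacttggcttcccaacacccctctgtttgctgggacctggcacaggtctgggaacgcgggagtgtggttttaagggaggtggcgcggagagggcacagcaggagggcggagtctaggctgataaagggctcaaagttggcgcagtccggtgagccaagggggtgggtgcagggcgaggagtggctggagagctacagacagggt

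The NF-kB match was present in H2-K1, 125 bases before this start site, and in H2-D1, 171 bases before its own, and in no other of the 8 genes. It occurs in 5.82% of all 32851 windows. In both heavy chains it was followed by a TGACG match and by a pair of CCAAT matches, the first of them on the opposite strand. At the best offset without gaps, 180 of 254 positions of these windows were identical, and the longest shared run was 47 bases. TGACG was found in 5 of the 8 genes (H2-K1, H2-D1, B2m, Psmb9 and Tap1), against 20.8% of all windows, and CCAAT in 6, against 37.4%. The Psmb9 and Tap1 matches of each motif are the same site in their shared bases, counted once for each gene. The interferon-stimulated core, as the string GAAANNGAA, was found in B2m, 139 bases before the start, against 8.56% of all windows. The gamma-activated site was found in Psmb8, against 8.3%. Other forms of the interferon-stimulated element were not searched. The lack of a match in the H2-K1 and H2-D1 windows therefore does not show that they hold no such element. Tapbp had CCAAT matches 248 and 165 bases before its start and no TGACG match in this window. Psmb8 and Psmb10, which were higher in PreAs than in progenitors, had neither a TGACG nor a CCAAT match. A match is a description of the letters and shows no bound factor.

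Together, the 10 genes took 0.532%, 0.659% and 0.487% of all UMIs in the PreAs of mice 1, 2 and 3. In progenitors they took 0.2675%, 0.372% and 0.258%, and in regulatory cells 0.213%, 0.283% and 0.223%. The PreAs were therefore above both other classes in every mouse, without overlap between the groups. The heavy and light chain genes H2-K1, H2-D1 and B2m made up most of this, with 0.507% ± 0.0839 of UMIs (mean ± SD, n = 3 mice) in PreAs, 0.252% ± 0.0571 in progenitors and 0.200% ± 0.0334 in regulatory cells.

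**Figure D1:**
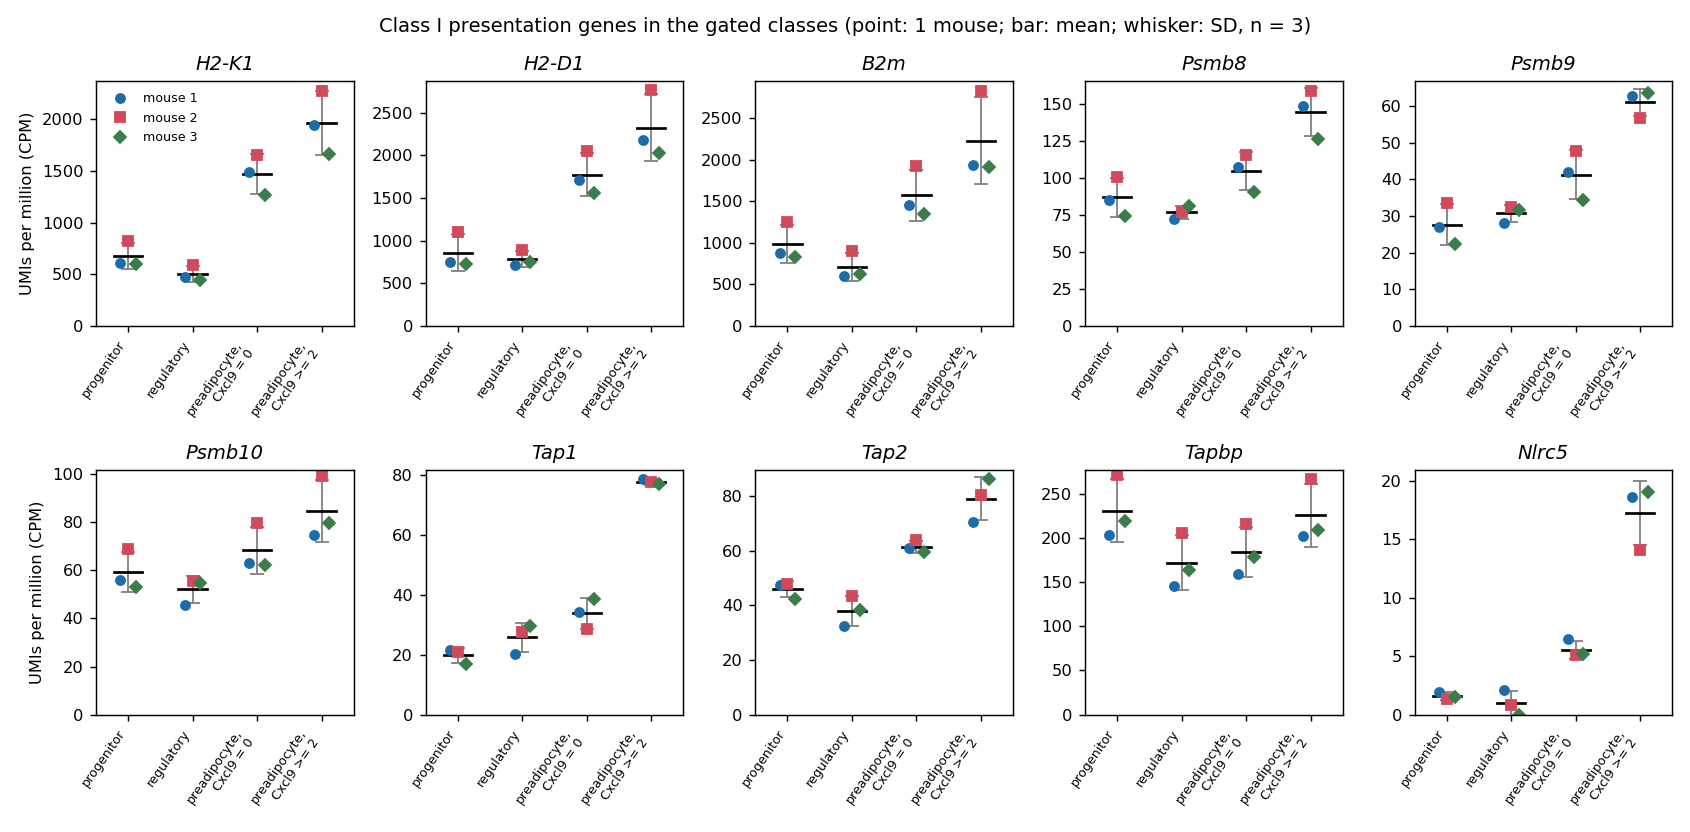
Counts per 1000000 UMIs (CPM, vertical axis, starting at 0) of each gene in progenitors, regulatory cells, PreAs without Cxcl9 UMIs and PreAs with 2 or more, with 1 point per mouse, the mean as a bar and the SD as whiskers. All PreA points lie above all points of the other classes for the heavy chains, B2m, Psmb9, Tap2 and Nlrc5. For Tap1 the means do so, but PreAs without Cxcl9 of mouse 2 (28.5 CPM) lie below regulatory cells of mouse 3 (29.4 CPM). Tapbp is highest on average in progenitors, at 231 CPM.

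The first question was how the pathway differs between progenitors and PreAs. In PreAs, 9 of the 10 genes were higher than in progenitors and 1, Tapbp, was lower, at a false discovery rate of 0.05 in edgeR's quasi-likelihood test with the mouse as a block and Benjamini-Hochberg adjustment over 13264 genes. In this comparison 27.2% of all genes tested were called higher and 29.2% were called lower, so that a call by itself was common. The median log2 fold change of the 10 genes was 0.67, beside 0.00436 for all genes tested. Fold changes below are log2 values ± standard error of the fit, and levels are CPM. In this and all later comparisons, overlap between mice was read for named genes only, and its share over all genes was not counted. The transactivator and the heavy chains differed most, and Psmb8 and Psmb10 least.

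H2-K1, a classical heavy chain, was at 1549, 1768 and 1322 CPM in the PreAs of mice 1, 2 and 3 and at 606, 823 and 597 CPM in their progenitors. All 3 PreA values lay above all progenitor values, and the log2 fold change was 1.15 ± 0.0663 (edgeR adjusted p = 2.17e-08). H2-D1, the other classical heavy chain of this strain, was at 1761, 2168 and 1634 CPM in PreAs and at 751, 1106 and 725 CPM in progenitors. It was again higher without overlap, by 1.07 ± 0.0758 on the log2 scale. B2m, the light chain shared by all class I molecules, was at 1517, 2069 and 1425 CPM against 876, 1249 and 825 CPM, a log2 fold change of 0.72 ± 0.0601. Mouse 2 had the highest level of these 3 genes in both classes, and its cells were also the most deeply sequenced.

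Both transporter subunits were higher as well. Tap1 was at 38.9, 35.5 and 42.0 CPM in PreAs and at 21.6, 20.7 and 17.0 CPM in progenitors, a log2 fold change of 0.92 ± 0.0978. Tap2, its partner, was at 62.1, 67.1 and 62.7 CPM against 47.6, 47.9 and 42.5 CPM, a log2 fold change of 0.42 ± 0.0634. Neither gene overlapped between the classes. Nlrc5 was the rarest of the 10, with 7.77, 6.51 and 6.63 CPM in PreAs and 1.95, 1.30 and 1.51 CPM in progenitors. The difference was 2.08 ± 0.188 on the log2 scale (edgeR adjusted p = 1.35e-06), the largest of the 10, from 90 to 143 UMIs per mouse in PreAs.

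The immunoproteasome subunits, which replace constitutive catalytic subunits of the proteasome, rose by unequal amounts. Psmb9 was at 44.2, 50.4 and 37.6 CPM in PreAs against 26.9, 33.5 and 22.4 CPM in progenitors, higher without overlap by 0.63 ± 0.0708 on the log2 scale. Psmb8 was at 111, 121 and 94.8 CPM against 85.5, 101 and 74.5 CPM, which overlapped between mice although each mouse was higher in its own PreAs. Its log2 fold change was 0.28 ± 0.0765 (edgeR adjusted p = 0.00875). Psmb10 rose by 0.18 ± 0.0663 (edgeR adjusted p = 0.0365), the smallest rise of the 9 and again with overlap between mice. The call of Psmb10 was lost in 5 of the alternatives tried, among them without mouse 2 and without mouse 3 (0.17 on the log2 scale in both).

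Tapbp, which encodes tapasin, went the other way. It was at 165, 224 and 184 CPM in PreAs and at 203, 271 and 219 CPM in progenitors, lower in PreAs in each of the 3 mice. The log2 fold change was -0.33 ± 0.0558 (edgeR adjusted p = 3.06e-04), while values of different mice overlapped between the classes. Whether its exon overlap with Zbtb22 affects the level of Tapbp, or this difference, was not tested.

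Of the 8 endothelial markers, 7 could be tested and 6 were higher in PreAs, at a median log2 fold change of 5.24, and 5 of 7 mural markers were higher and 2 lower. Leaving out every cell with a leukocyte marker UMI or with 2 or more endothelial marker UMIs kept all 10 calls, and H2-K1 then differed by 1.16 and Nlrc5 by 2.12 on the log2 scale. The part of mural cells in the result was not tested. Genes of the response to tissue dissociation moved with the class as well, with 10 of 14 higher in PreAs, and their part was not tested either.

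**Figure D2:**
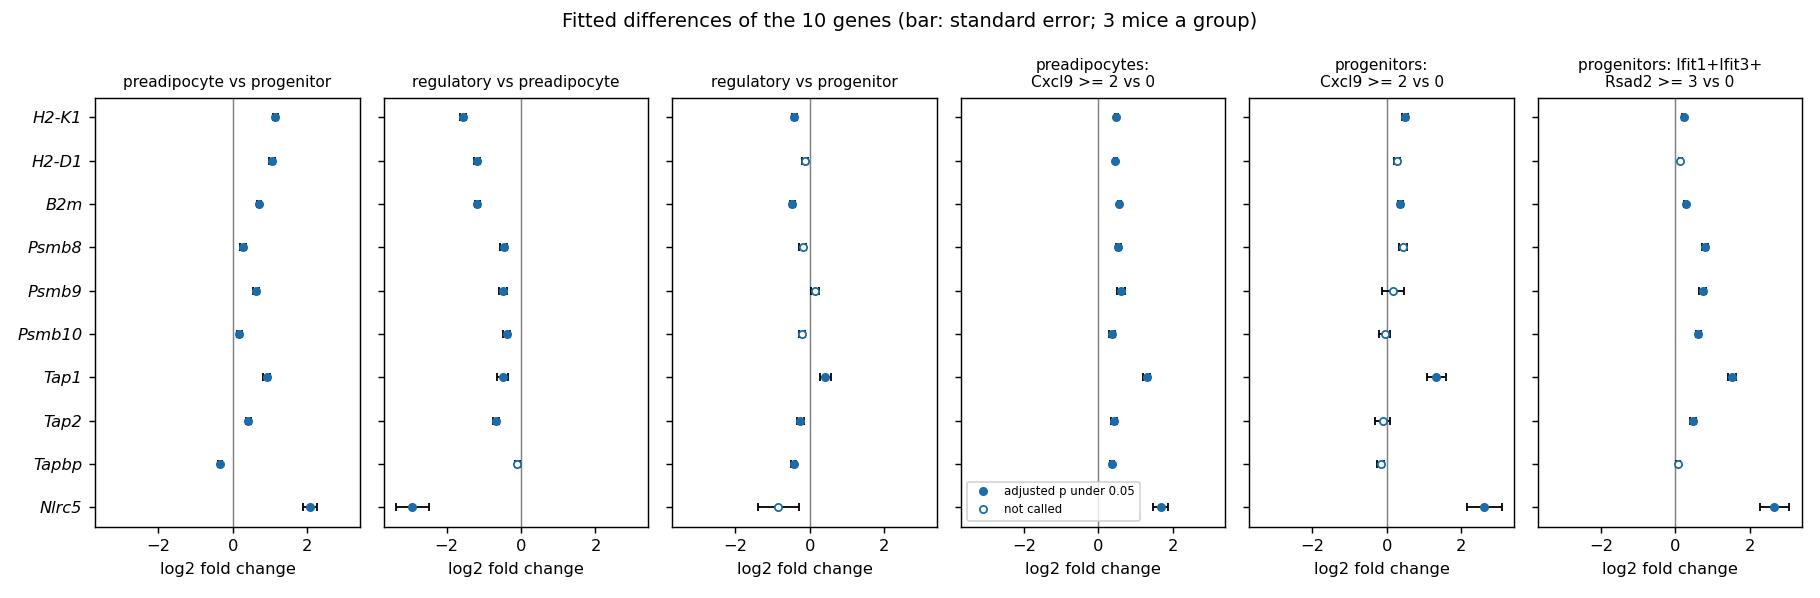
Fitted log2 fold change (horizontal axis) of each gene in 6 comparisons, with the standard error as a bar and filled points where the edgeR adjusted p was under 0.05 (3 mice in each group). Nlrc5 and Tap1 lie farthest to the right wherever cells with Cxcl9 or with Ifit1, Ifit3 and Rsad2 UMIs were compared with cells without them.

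Other genes of the pathway were taken from lists of named genes. Of 10 further class I heavy chain genes, 6 were higher in PreAs and 2 were lower. The fold changes of 4 H2-Q genes were larger than those of the classical chains. H2-Q7 was at 95.5, 88.0 and 57.8 CPM in the PreAs of mice 1, 2 and 3 and at 6.68, 8.71 and 5.59 CPM in their progenitors, a log2 fold change of 3.47 ± 0.101. H2-Q10, H2-Q6 and H2-Q4 rose by 4.07, 3.14 and 1.77, and H2-T23, which presents leader peptides to natural killer cells, had a log2 fold change of -0.06 and was not called. Since several of these genes are close copies, how the reads were shared among them is uncertain.

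The rest of the machinery moved in both directions. Of the 3 constitutive catalytic subunits, Psmb5 and Psmb6 rose, by 0.26 and 0.23 on the log2 scale, and Psmb7 was not called. Among 3 subunits of the proteasome activator, Psme1 fell by 0.45 and the others were not called. Of 8 genes for peptide loading and trimming, Tapbpl rose by 0.28, Canx and Lnpep fell by 0.25 and 0.68, and 5 were not called. Of the 8 partners of NLRC5 on the promoter, Nfya, Nfyb and Nfyc rose by between 0.20 and 0.34 and Creb1 fell by 0.43.

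Interferon signalling genes were higher in 12 of 16 cases and lower in 2. The transcription factor gene Irf1 was at 478, 212 and 467 CPM in PreAs and at 197, 118 and 207 CPM in progenitors, a log2 fold change of 1.05 ± 0.0926. Ifngr2, a chain of the interferon gamma receptor, rose by 0.95, whereas Irf7, a factor of the type I response, fell by 1.31. The NF-kB subunit genes Nfkb1 and Rel fell by 1.39 and 1.28, and 4 of the 5 subunits were lower in PreAs. MHC class II genes stayed near the limit of detection, at a sum of between 5.30 and 14.1 CPM over 7 genes in progenitors, PreAs and regulatory cells.

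Regulatory cells lay below PreAs. Of the 10 genes, 9 were lower and Tapbp, with a log2 fold change of -0.10 ± 0.0629, was not called. Of all genes tested, 12.3% were called higher and 13.4% lower in this comparison, and the median of the 10 genes was -0.58, beside -0.0388 for all genes. H2-K1 was at 475, 591 and 449 CPM in the regulatory cells of mice 1, 2 and 3 and fell by 1.56 ± 0.0697 (edgeR adjusted p = 2.49e-08). H2-D1 fell by 1.19 and B2m by 1.18, each without overlap between the classes. Nlrc5 had 3, 3 and 0 UMIs in the regulatory cells, at the limit of what these counts can show, and its fitted fold depends on the prior count. Without mouse 2, which held the most regulatory UMIs, 5 of the 9 calls were left, and Psmb8, Psmb9, Psmb10 and Tap1 were at -0.34, -0.36, -0.26 and -0.59. The call of Tap1 was also lost without mouse 1 (-0.41). Over all alternatives the calls of Psmb8, Psmb9, Psmb10 and Tap1 were lost in 2, 4, 3 and 5, each also without the pairing by mouse. Those of Psmb9 and Tap1 were lost with cells thinned to 3000 UMIs before and after gating, and that of Psmb10 with thinning after gating. The regulatory cells held a median of 4945, 10104 and 4575 UMIs per cell, against 8083, 12977 and 7296 in PreAs.

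Regulatory cells and progenitors differed by less. Tap1 was higher in regulatory cells, at 20.4, 27.6 and 29.4 CPM against 21.6, 20.7 and 17.0 CPM, a log2 fold change of 0.42 ± 0.155 (edgeR adjusted p = 0.0444), although it was lower in mouse 1. H2-K1, B2m, Tap2 and Tapbp fell by 0.42, 0.46, 0.26 and 0.43. The other 5 genes were not called, among them H2-D1 with -0.12 ± 0.0772. In this comparison 19.0% of all genes were called higher and 24.0% lower, beside 1 and 4 of the 10 genes. Of the 10 genes, only H2-K1 did not overlap between the classes, with no share over all genes to set beside it. The call of Tap2 was lost in 13 alternatives, each mouse left out among them (-0.13, -0.32 and -0.30 without mice 1, 2 and 3), and that of Tap1 in 5, among them without mouse 2 (0.43) and mouse 3 (0.25), while H2-K1, B2m, Tap2 and Tapbp were each lower in 3 of 3 mice. The regulatory cells held a median of 4945, 10104 and 4575 UMIs per cell, against 7329, 12052 and 6690 in progenitors.

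The next question was whether PreAs that express Cxcl9, a chemokine gene induced by interferon gamma, hold more of the pathway. PreAs with 2 or more Cxcl9 UMIs, of which there were 222, 156 and 172 in mice 1, 2 and 3, were compared with 1949, 1141 and 1631 PreAs without any. All 10 genes were higher in the cells with Cxcl9, at a false discovery rate of 0.05 (edgeR, 11493 genes tested, mouse as a block), and the 10 genes were higher in 3 of 3 mice. Of all genes tested, 5.06% were called higher. The median log2 fold change of the 10 genes was 0.52, beside -0.00189 for all genes tested. The cells with Cxcl9 had a median of 8412.5, 13879 and 7669 UMIs, and those without had 8040, 12817 and 7239.

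Tap1 and Nlrc5 stood out from the rest. Tap1 was at 78.6, 77.5 and 76.8 CPM in the cells with Cxcl9 and at 34.2, 28.5 and 38.6 CPM in those without, a log2 fold change of 1.30 ± 0.101 (edgeR adjusted p = 2.66e-07). Nlrc5 was at 18.6, 14.1 and 19.0 CPM against 6.45, 5.06 and 5.18 CPM, a log2 fold change of 1.69 ± 0.204, from 26 to 35 UMIs per mouse. Neither gene overlapped between the groups. Among cells that had no Ifit1, Ifit3 or Rsad2 UMI, a setting chosen after seeing the data, Tap1 was still called at 0.97 and Nlrc5, at 1.27, was not (edgeR adjusted p = 0.211).

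The chain genes rose by similar amounts. H2-K1 was at 1947, 2280 and 1663 CPM in the cells with Cxcl9 and at 1493, 1653 and 1264 CPM in those without, a log2 fold change of 0.49 ± 0.0390 (edgeR adjusted p = 3.63e-07). H2-D1 was at 2178, 2764 and 2026 CPM against 1705, 2050 and 1559 CPM, and B2m at 1940, 2832 and 1914 CPM against 1454, 1924 and 1346 CPM. Their log2 fold changes were 0.46 ± 0.0378 and 0.57 ± 0.0401. H2-D1 and B2m overlapped between mice, yet each mouse was higher in its own cells with Cxcl9.

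The remaining processing and loading genes rose by between 0.37 and 0.62. Psmb8 was at 149, 159 and 126 CPM against 107, 116 and 90.7 CPM, and Psmb9 at 62.6, 56.8 and 63.6 CPM against 41.9, 47.6 and 34.4 CPM, with log2 fold changes of 0.55 ± 0.0669 and 0.62 ± 0.112. Both were higher without overlap. Psmb10 rose by 0.38 ± 0.0794 and overlapped between mice, and Tap2 by 0.43 ± 0.0872 without overlap. Tapbp, which was lower in PreAs than in progenitors, was higher in the PreAs with Cxcl9 by 0.37 ± 0.0598 (edgeR adjusted p = 6.26e-04), at 202, 267 and 208 CPM against 159, 215 and 178 CPM. Without mouse 1, 6 of the 10 genes were still called, and Psmb9, Psmb10, Tap2 and Tapbp were then at 0.59, 0.41, 0.49 and 0.35. The call of Psmb10 was also lost without mouse 2 (0.36). Over all alternatives it was lost in 8, and the calls of Psmb9, Tap2 and Tapbp were lost in 6, 5 and 5. DESeq2 called 8 of the 10 genes, without Psmb10 and Tap2.

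The endothelial marker sum was 229, 201 and 1.46 CPM in the PreAs with Cxcl9 and 12.1, 45.3 and 5.70 CPM in those without, so that it moved with Cxcl9 in mice 1 and 2 and not in mouse 3. Cells with 2 or more endothelial marker UMIs were 5.86%, 7.69% and 0% of the former, and 0.821%, 2.19% and 0.368% of the latter. For mouse 3, 0 of 172 cells allows a share of up to 1.74% (3 counts, counting error only). Of the 7 endothelial markers tested, 7 were higher with Cxcl9 in edgeR, and DESeq2 called 2 of the 7. Of 14 dissociation response genes 2 were higher and 7 lower, beside 582 higher and 138 lower of the 11493 genes tested. The part of the dissociation response was not tested. With the endothelial-marked and leukocyte-marked cells left out, all 10 genes were still called, and the log2 fold changes of Tap1 and H2-K1 were 1.35 and 0.51. Of the 16 leukocyte markers, 9 were at 0 in the PreAs with Cxcl9 of all 3 mice, Ptprc among them, and 7 were detected. Cells with a leukocyte marker UMI were 5.86%, 6.41% and 4.65% of the PreAs with Cxcl9 and 3.95%, 7.54% and 2.58% of those without.

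**Figure D3:**
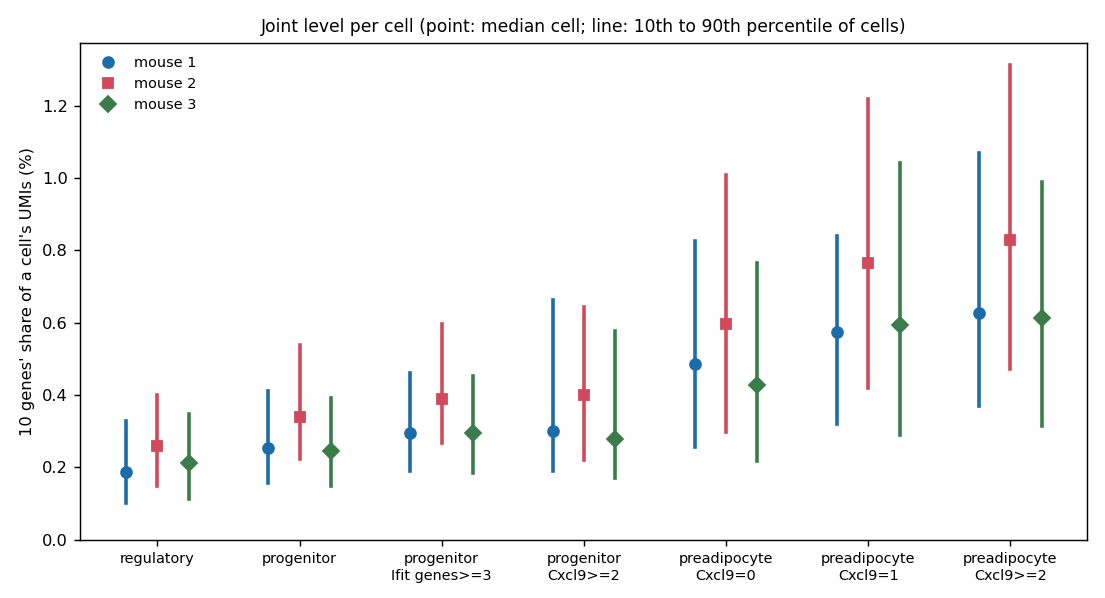
Share of each cell's UMIs taken by the 10 genes (vertical axis, percent), with the median cell as a point and the 10th to 90th percentile of cells as a line, for each mouse. PreAs with 2 or more Cxcl9 UMIs had medians of 0.627%, 0.830% and 0.614%, above PreAs without Cxcl9 in each mouse, while the ranges of cells overlapped widely.

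Cells with Cxcl9 did not form a group apart in the joint level. Their median cell gave 0.627%, 0.830% and 0.614% of its UMIs to the 10 genes, against 0.486%, 0.598% and 0.429% in the PreAs without Cxcl9. Of the cells with Cxcl9, 26.1%, 32.7% and 28.5% lay above the 90th percentile of the cells without, and 29.7%, 23.1% and 25.0% lay below their median. The plot of the joint level per cell shows the same overlap.

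The differences did not all grow with the amount of Cxcl9. As a log2 ratio to PreAs without Cxcl9 of the same mouse, at a pseudocount of 1 CPM, Tap1 was at 0.14 ± 0.547 (SD, n = 3 mice) with 1 Cxcl9 UMI, at 0.69 ± 0.213 with 2 to 4, at 0.94 ± 0.0473 with 5 to 9 and at 1.64 ± 0.181 with 10 or more. These steps rose in order, and from 2 UMIs on all 3 mice were above 0. H2-K1 was at 0.33 ± 0.129, 0.33 ± 0.133, 0.16 ± 0.0750 and 0.64 ± 0.0716 in the same steps. The first 3 steps of H2-K1 were not in the order of Cxcl9, and the step of 10 or more lay above them in every mouse. Tapbp was at 0.29 ± 0.139, 0.03 ± 0.0835, 0.23 ± 0.0697 and 0.55 ± 0.0510. Nlrc5 rested on as few as 3 UMIs per mouse in these steps. All values are descriptions, and cells with more UMIs in all are more likely to reach a high step.

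**Figure D4:**
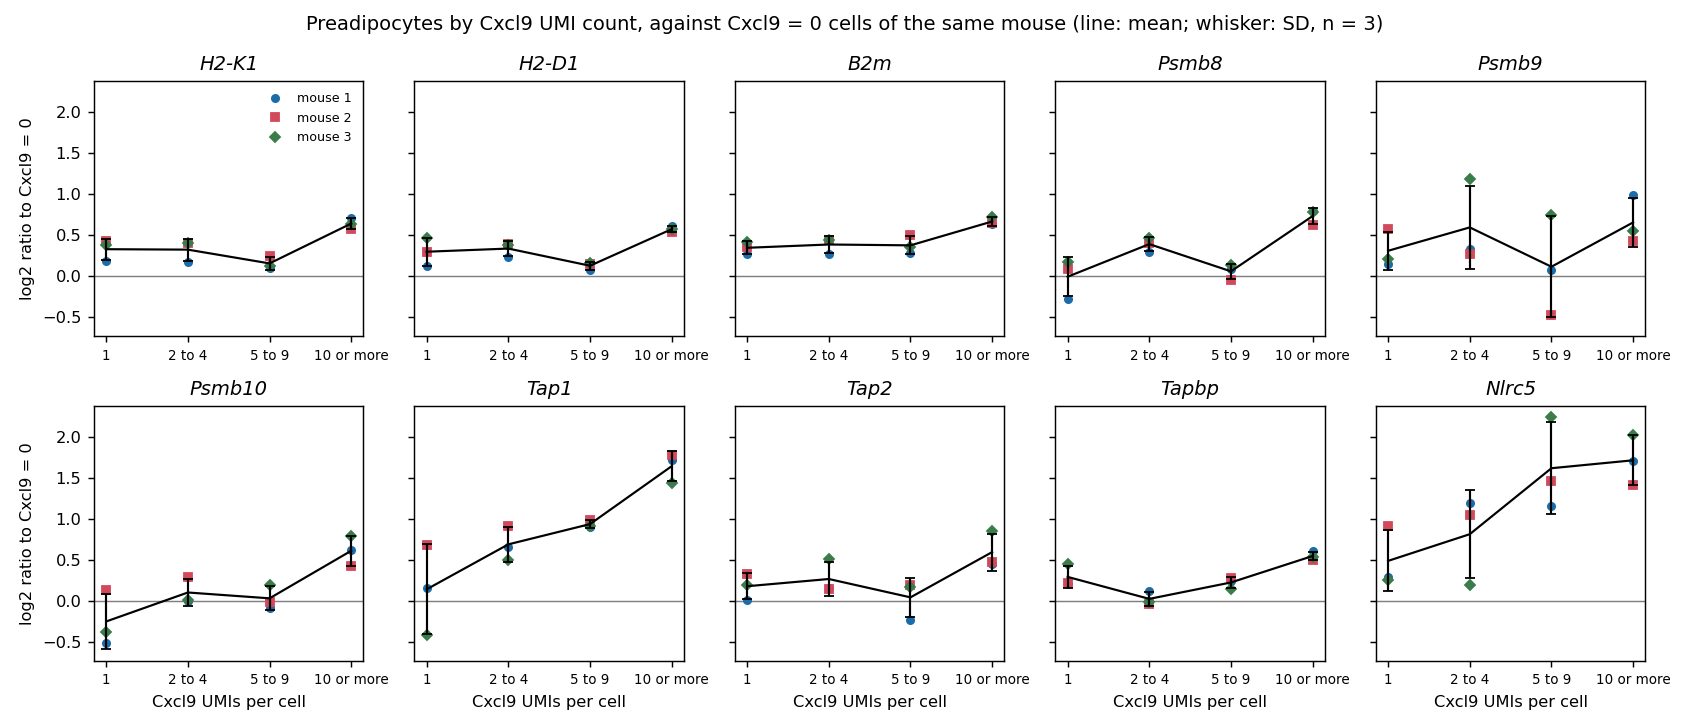
Log2 ratio of each gene (vertical axis, pseudocount of 1 CPM) in PreAs with 1, 2 to 4, 5 to 9 and 10 or more Cxcl9 UMIs to PreAs without Cxcl9 of the same mouse, with 1 point per mouse and the mean and SD as a line with whiskers (n = 3). The means of Tap1 and Nlrc5 climb across the steps, in order within every mouse for Tap1 and within none for Nlrc5, which rested on few UMIs. The means of H2-K1, H2-D1, Psmb8, Psmb9, Psmb10, Tap2 and, slightly, B2m dip at 5 to 9 UMIs.

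The same lists were read in this comparison. Of 10 further heavy chain genes, 9 were tested and 5 were higher (H2-Q4, H2-Q6, H2-Q7, H2-T22 and H2-T23), by between 0.40 and 0.97 on the log2 scale. H2-T23, which was not called between PreAs and progenitors, was among them with 0.54. None of the 3 constitutive catalytic subunits was called, at log2 fold changes of between 0.0043 and 0.09 (edgeR, with 0 at an unadjusted p under 0.05 and 0 in DESeq2). Psme1, Tapbpl and the chaperone gene Hspa5 rose by 0.30, 0.56 and 0.21, and none of the 8 partners of NLRC5 was called (edgeR, with 1 at an unadjusted p under 0.05 and 0 in DESeq2).

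Regulators of the pathway moved with Cxcl9 as well. Of 16 interferon signalling genes, 11 were higher and 0 were lower. Irf1 was at 924, 403 and 850 CPM in the cells with Cxcl9 and at 418, 179 and 414 CPM in those without, a log2 fold change of 1.19 ± 0.0497. Irf8 rose by 3.37, Irf7 by 1.69 and Socs1 by 1.14. The inhibitory ligand gene Cd274, which encodes PD-L1, was at 24.2 ± 4.31 CPM (SD, n = 3 mice) against 5.43 ± 0.817 CPM. Of the NF-kB subunit genes, Nfkb1, Rel and Rela rose by between 0.58 and 0.90. The class II genes were again near the limit of detection, and their transactivator gene Ciita was at 0 UMIs in the cells with Cxcl9 of all 3 mice.

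Cxcl9 was rare in progenitors, where 41, 28 and 45 cells had 2 or more UMIs. In these, 4 of the 10 genes were higher than in progenitors without Cxcl9: H2-K1, B2m, Tap1 and Nlrc5, by 0.49, 0.37, 1.33 and 2.62 on the log2 scale (edgeR, 12141 genes tested). Tap1 was at 53.7, 44.0 and 56.2 CPM, from 19 to 20 UMIs per mouse, against 21.2, 20.3 and 16.7 CPM in the progenitors without Cxcl9. Nlrc5 rested on 3, 4 and 4 UMIs, and its fitted fold depends on the prior count. Of all genes tested, 0.922% were called higher. All 4 calls were lost without mouse 1 (0.46 for H2-K1, 0.34 for B2m, 1.38 for Tap1 and 2.89 for Nlrc5), that of Nlrc5 also without mouse 2 (2.53), and that of H2-K1 alone was left without mouse 3. Without TMM scaling 6 of the 10 were called, and the median of all genes, -0.11 with TMM scaling, was then -0.0412. Class markers outside the gates moved in these cells as well. Of 7 PreA markers 3 were higher (median log2 fold change 0.97), and of 6 progenitor markers 1 was lower (median -0.58). Of 8 regulatory markers 2 were higher. Doublets were not called, and the part of PreA-like or mixed cells was not tested.

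Whether Cxcl9 goes with a different change in PreAs than in progenitors was tested as an interaction. None of the 10 genes was called, with 3 at an unadjusted p under 0.05 in edgeR and 1 called in DESeq2. The difference was largest in size for Nlrc5, at -0.94 ± 0.452, which rested on 3, 4 and 4 UMIs in the progenitors with Cxcl9. The fitted values of Tap2, Psmb9 and Psmb10 were between 0.43 and 0.54. For H2-K1 it was -0.0034 ± 0.100 and for Tap1 -0.05 ± 0.265. Over all genes, 0.173% were called higher and 0.115% lower, and the median log2 difference of all genes was 0.11 with TMM scaling and -0.0337 with library size only. Of 7 PreA markers outside the gate 1 was called lower in the interaction, and of 6 progenitor markers 1 higher. The part of such shifts in class markers was not tested.

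The second response was read in progenitors, through Ifit1, Ifit3 and Rsad2, targets of type I interferon that are not among the 10 genes. Progenitors with 3 or more UMIs of these (333, 246 and 288 cells) were compared with 6006, 2421 and 8006 progenitors without any. Of the 10 genes, 8 were higher at a false discovery rate of 0.05 (edgeR, 12379 genes tested), and 2.46% of all genes were called higher. H2-D1 had a log2 fold change of 0.13 ± 0.0408 (edgeR adjusted p = 0.119) and Tapbp of 0.07 ± 0.0564, and neither was called. The median of the 10 genes was 0.55, beside -0.0052 for all genes. Cells with 2 or more endothelial marker UMIs were 3.30%, 0.813% and 2.08% of the progenitors with these UMIs and 0.599%, 0.454% and 0.0874% of those without, and of 2 endothelial markers tested 1 was higher. With endothelial-marked and leukocyte-marked cells left out, the same 8 genes were called.

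Tap1 was at 53.9, 42.0 and 50.8 CPM in the progenitors with these UMIs and at 18.4, 17.6 and 14.3 CPM in those without, a log2 fold change of 1.53 ± 0.111 (edgeR adjusted p = 1.08e-07). Psmb8 was at 136, 148 and 144 CPM against 79.9, 94.8 and 69.6 CPM, a log2 fold change of 0.80 ± 0.0734. Psmb9, Psmb10 and Tap2 rose by 0.74, 0.62 and 0.48. All 5 of these genes were higher without overlap between the groups, and the share of all genes without overlap was not counted. H2-K1 rose by 0.23 ± 0.0452 and B2m by 0.29 ± 0.0406, with overlap between mice. Nlrc5 had 24, 8 and 26 UMIs in the cells with these transcripts and rose by 2.67 ± 0.384. The log2 fold changes of the 5 processing and transport genes exceeded those of the 3 chain genes, and this difference between the sets was not tested. Of the list genes, Irf1 was not called, at 0.21 (edgeR adjusted p = 0.0795), whereas Stat2 rose by 1.92 and Irf9 by 1.45.

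Both readouts could be set side by side in PreAs, in comparisons added after the data were seen. PreAs with 2 or more Cxcl9 UMIs and no Ifit1, Ifit3 or Rsad2 UMI numbered 93, 52 and 77, and PreAs with 3 or more of the latter and no Cxcl9 UMI numbered 113, 125 and 79. Both were compared with the same PreAs with neither, 1561, 770 and 1353 cells, so that the comparisons share their controls. In the cells with Cxcl9 alone, H2-K1, H2-D1, B2m and Tap1 were called higher, by 0.45, 0.41, 0.48 and 0.96 on the log2 scale, beside 1.58% of the 7911 genes tested. In the cells with the interferon targets alone, B2m, Psmb8, Tap1 and Nlrc5 were called higher, by 0.31, 0.60, 1.65 and 1.67, beside 4.84% of genes. Without mouse 1 the call of Tap1 with Cxcl9 alone was lost (0.94), as were those of B2m, Psmb8 and Nlrc5 with the interferon targets alone (0.26, 0.51 and 1.57), and that of B2m was lost without mouse 3 as well (0.30). In edgeR endothelial markers moved with both groups, with 6 of 6 tested higher with Cxcl9 alone (median log2 fold change 3.86) and 5 of 6 with the interferon targets alone (2.42). DESeq2 called 0 of these 6 markers in either comparison. With endothelial-marked and leukocyte-marked cells left out, the same 4 genes were called in each comparison, and Psmb8 was called with Cxcl9 alone as well (0.49).

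The groups with 1 readout each were then compared directly. H2-K1 was at 1966, 2373 and 1572 CPM with Cxcl9 alone and at 1630, 1593 and 1377 CPM with the interferon targets alone, higher in the former by 0.30 ± 0.0729 on the log2 scale (edgeR adjusted p = 0.0268). Tap1 was at 53.4, 46.6 and 59.2 CPM against 95.2, 56.9 and 102.5 CPM, a log2 fold change of -0.68 ± 0.172 with Cxcl9 alone (edgeR adjusted p = 0.0338). Each of the 3 mice showed both directions. The other 8 genes were not called, and 0.733% of all genes were called higher and 2.16% lower. H2-Q7 and H2-Q6 were higher with Cxcl9 alone by 1.03 and 0.92, and Cd274 was lower by 2.53 in edgeR, a call that DESeq2 did not make. The 2 groups also differed in class markers outside the gates. Of 7 PreA markers 3 were higher with Cxcl9 alone and 0 lower, and of 6 regulatory markers 1 was higher and 2 lower. The part of these shifts was not tested. The call of H2-K1 was lost without mouse 1 (0.34 on the log2 scale) and without mouse 2 (0.17), and that of Tap1 without mouse 1 (-0.58) and without mouse 3 (-0.59). Both calls were also lost with stricter gates and without the pairing by mouse, and the call of Tap1 was lost in 9 of the alternatives tried, among them without the endothelial-marked and leukocyte-marked cells (-0.62).

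The balance between immunoproteasome and constitutive subunits was read as a share, UMIs of Psmb8, Psmb9 and Psmb10 as a percentage of these and of Psmb5, Psmb6 and Psmb7. It was 41.0%, 42.5% and 41.3% in the PreAs of mice 1, 2 and 3, 39.8%, 40.8% and 39.1% in progenitors and 30.8%, 34.5% and 37.6% in regulatory cells. PreAs were above progenitors by 1.66 ± 0.448 percentage points (SD, n = 3 mice) in 3 of 3 mice, and the exact two-sided sign-flip permutation test gave p = 0.25, the smallest that 3 mice allow. Regulatory cells were the lowest in every mouse.

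The share also differed within a class. In PreAs with Cxcl9 it was 49.2%, 48.2% and 49.1%, against 40.1%, 41.4% and 40.2% in those without, a difference of 8.24 ± 1.31 points (n = 3 mice, exact permutation p = 0.25). In progenitors with Ifit1, Ifit3 and Rsad2 UMIs it was 49.6%, 49.9% and 52.8%, against 38.7%, 39.5% and 37.8%, a difference of 12.1 ± 2.51 points (n = 3 mice, exact permutation p = 0.25). Both differences exceeded that between PreAs and progenitors in every mouse. Psmb9 held the smallest part of its own pair, 34.3% ± 4.79 of Psmb9 and Psmb6 UMIs in the PreAs with Cxcl9, against 55.6% ± 2.50 for Psmb8 with Psmb5 and 54.3% ± 2.37 for Psmb10 with Psmb7.

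**Figure D5:**
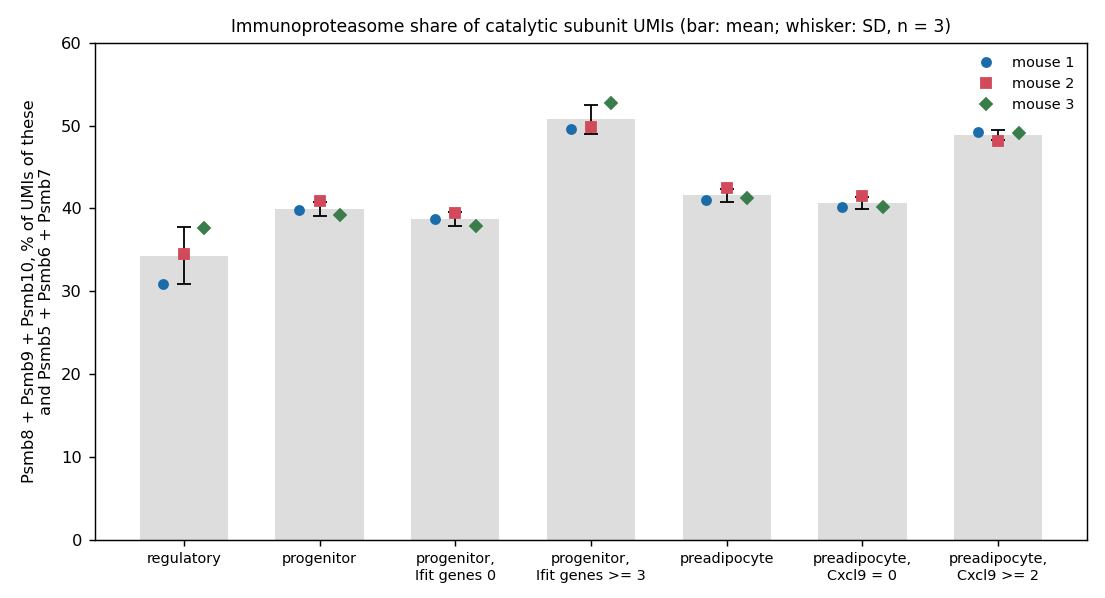
Share of Psmb8, Psmb9 and Psmb10 among UMIs of these and of Psmb5, Psmb6 and Psmb7 (vertical axis, percent, starting at 0), with 1 point per mouse, the mean as a bar and the SD as whiskers (n = 3). The cells with Cxcl9 or with Ifit1, Ifit3 and Rsad2 UMIs lie between 48.2% and 52.8%, above the other groups shown, which lie between 30.8% and 42.5%.

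Over 15 sums (progenitors, regulatory cells and PreAs with 0, 1 and 2 or more Cxcl9 UMIs in 3 mice), the genes among 2779 candidates of at least 50 CPM whose mouse-centred log2 level was most like the mean of the 10 were Tnfaip2, Top1, H2-Q7, Samd9l and Zfand5, with Pearson's r of between 0.954 and 0.966. The genes most like H2-K1 were H2-Q7 (0.994), Eif4g3 and Top1, and those most like Nlrc5 were Ddx24, Golph3 and Top1. Among the 10 genes, r to their own mean was between 0.451 for Tapbp and 0.976 for Tap2. Each gene is part of that mean, which raises its r. These sums share animals and libraries, so the values are a description.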

How the data were processed

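Droplet libraries of the CD31- CD45- SVF of inguinal fat were analysed from 3 mice, 1 library per mouse. The authors deposited UMI counts per gene and barcode, not normalized. The submitters' processing notes name Cell Ranger 2.1.1 and mm10, whereas the matrix headers name cellranger 4.0.0. Doublets were not called. The number of per-sample columns that could not be mapped was 0.

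Cells were filtered and gated on raw UMIs as given above. UMIs were summed per mouse and group of cells, and sums under 10 cells were not used. The main test was edgeR's quasi-likelihood test with TMM scaling, the default filter on low counts, the mouse as a block and Benjamini-Hochberg adjustment over all genes tested, at a false discovery rate of 0.05. Standard errors were computed as the fold change divided by the square root of F. Groups of cells within a mouse come from the same animal, and the lowest correlation of deviations between sums of the same mouse was 0.119. It lay in the fit of Cxcl9 in both classes, where sums of different mice reached 0.189. Cells were not used as replicates. With the mouse as a block, p-values measure how differences between groups varied over the 3 mice, not the spread between mice. The fits left 4 residual degrees of freedom for the classes and 2 for Cxcl9 in PreAs. The test therefore drew the spread of each gene partly from all genes tested. The gates, the Cxcl9 groups and the Ifit1, Ifit3 and Rsad2 groups were each cut on the same cells whose other genes were tested, and none of the 10 genes was used to cut them.

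Promoter sequences were taken from RefSeq (GRCm38.p6) and gene positions from GENCODE M21. Versions were R 4.3.3, edgeR 4.0.16, DESeq2 1.42.0 and Python 3.11.15. On simulated sums of PreAs and progenitors (13264 genes), 104 of 108 changes of 1 on the log2 scale and 92 of 92 changes of 2 were recovered, with 7 false calls. For PreAs with and without Cxcl9 (11493 genes), 83 of 102 and 94 of 98 were recovered, with 11 false calls. For progenitors with and without Cxcl9 (12141 genes), 52 of 106 and 63 of 94 were recovered, with 9 false calls. The changed genes were drawn from those with a higher mean count, and no difference between mice was simulated. These rates may therefore not hold for rare genes or for the real sums.

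The 10 genes were named in every comparison, and further genes came from 21 lists or, for likeness, from a rank of correlation. The members and lists were chosen with earlier results of these data known. Alternatives were no replicate block, DESeq2, other scalings, no filter, stricter gates, cells thinned to 3000 UMIs, other cell filters and each mouse left out.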

Additional observations from a re-analysis of the deposited data

How the results depend on the processing

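Counts of the 10 genes called are given here as they stood under each alternative. Counts over all genes stand beside them only for some comparisons without the replicate block. Elsewhere a change in the count is not shown to be particular to the 10 genes. The comparison of PreAs and progenitors kept between 9 and 10 calls with a mouse left out, and between 7 and 10 otherwise. Over all alternatives, 143 values of single genes in it stayed on the same side of the threshold, 7 lost their call and 0 reversed. Without the replicate block, which is the pairing of sums by mouse, 7 of 10 were called there, 5 for regulatory cells against PreAs, 0 against progenitors, 2 for Cxcl9 in PreAs, 2 for Cxcl9 in progenitors, 0 for the interaction and 1 for Ifit1, Ifit3 and Rsad2 in progenitors. In the added comparisons it was 0 for Cxcl9 alone, 2 for the interferon targets alone and 0 between them. All genes called fell from 7477 to 4001 for PreAs against progenitors and from 720 to 50 for Cxcl9 in PreAs when the block was removed.

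With a mouse left out, calls ranged from 5 to 9 for regulatory cells against PreAs, 3 to 5 against progenitors, 6 to 10 for Cxcl9 in PreAs, 0 to 3 for Cxcl9 in progenitors, 0 to 0 for the interaction and 8 to 8 for the interferon targets in progenitors. In the added comparisons they ranged from 3 to 5 for Cxcl9 alone, 1 to 5 for the interferon targets alone and 0 to 1 between them. Thinning before gating left 3 calls for regulatory cells against progenitors, 6 for Cxcl9 in PreAs, 0 for the interferon targets alone and 0 between them. Genes under the low-count filter of a setting had no test there, so a missing call is not always a lost one. With this thinning Nlrc5 had no test for Cxcl9 in PreAs. Tap1 and Nlrc5 had none in the added comparisons. Thinning after gating left 1 for Cxcl9 in progenitors and 1 between the added groups. Stricter gates left 1 for Cxcl9 alone, 2 for the interferon targets alone, where Nlrc5 had no test, and 0 between them. Between them, 1 was left with DESeq2, with cells inside 2 gates kept and without marked cells. Without Ifit1, Ifit3 and Rsad2 UMIs, a setting chosen after seeing the data, 5 were called for Cxcl9 in PreAs and 0 in progenitors. For the interaction DESeq2 and no filter gave 1 call, that of Tapbp. Apart from the genes without a test, the cause of these changes was not tested. Cxcl9 in progenitors could not be run with stricter gates or thinning before gating, which left sums under 10 cells.

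The share of higher calls moved from 80.8% to 61.7% of all calls for Cxcl9 in PreAs when only library size was used, from 70.4% to 84.8% (89.5% with RLE) for Cxcl9 in progenitors, from 60.0% to 26.9% (41.7% with RLE) for the interaction and from 84.0% to 68.3% for the interferon targets alone. The difference in immunoproteasome share stayed between 7.84 and 13.6 points for Cxcl9 in PreAs, between 1.23 and 1.83 points for PreAs against progenitors and between 10.1 and 16.8 points for the interferon targets.

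Signs turned only for log2 values that were not called. For regulatory cells against progenitors, H2-D1 was at 0.0243 with thinning before gating and between -0.2043 and 0.0005 with a mouse left out, and Psmb9 was at -0.1167 with stricter gates and between -0.0091 and 0.3172. For Cxcl9 in progenitors, Psmb10 was at 0.0353 with DESeq2, 0.0178 with library size, 0.0365 with RLE, 0.1454 without the deepest cells, and between -0.2125 and 0.0702 with a mouse left out. There Tap2 was at 0.0977 without the deepest cells and Psmb9 between -0.1101 and 0.6372 with a mouse left out. For the interaction, H2-K1 was at 0.003 without the block, 0.0262 without the filter, between -0.0549 and 0.024 with a mouse left out, 0.0126 with cells inside 2 gates, 0.0505 without the deepest cells, 0.0374 without marked cells, 0.2065 thinned after gating and 0.1346 without Ifit1, Ifit3 and Rsad2 UMIs. There Psmb8 was at -0.0415 with library size, and Tap1 between -0.339 and 0.227 with a mouse left out and at 0.0661 without the deepest cells. For Cxcl9 alone with stricter gates, Psmb9, Psmb10 and Tap2 were at -0.0024, -0.1101 and -0.1819. For the interferon targets alone, Tap2 was between -0.0231 and 0.4177 with a mouse left out. Between them, Tap2 was between -0.1922 and 0.0732 with a mouse left out, at 0.0358 thinned after gating and 0.3447 thinned before. There Psmb10 was between -0.0803 and 0.2407 with a mouse left out, at -0.1197 with stricter gates and -0.1841 thinned before gating, Psmb9 between -0.0239 and 0.6404 with a mouse left out and at -0.3234 with stricter gates, and Tapbp at -0.0061 thinned after gating.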
